A study of Mus musculus with 15 samples.

Results

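The beta chain of a T-cell receptor is assembled from a V, a D and a J segment, and the bases left of the D after trimming, with bases added at both joints, make up the middle of the CDR3, the loop that reads the peptide. The mouse beta chain locus has a pair of D segments, TRBD1 and TRBD2, and the RefSeq table of GRCm38.p6 lists them on chromosome 6 in the order TRBD1, TRBJ1 cluster, TRBD2, TRBJ2 cluster. Joining by deletion in that order brings TRBD1 to either J cluster and TRBD2 to the TRBJ2 cluster, whereas a joint of TRBD2 to TRBJ1 is not formed by it. Because both D segments are short and rich in G, the D is the least certain of the 3 segment names given to a rearranged receptor, and a receptor with few bases between V and J is given no D name.

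The naming of TRBD1 and TRBD2 was examined in beta chain repertoires of CD8 T cells from non-obese diabetic (NOD) mice, which become diabetic through autoimmunity. Clonotypes were distinct combinations of V family, J segment name and nucleotide CDR3 within a library, so a receptor found in several libraries counts once in each. All entries with a TRBV family were taken and grouped by the D name in the deposited tables. Of 59364 clonotypes in 15 libraries, 24891 (41.9%) were named TRBD1, 19217 (32.4%) were named TRBD2 and 15256 (25.7%) carried no D name. No entry named more than 1 D.

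The libraries came from pooled spleen and non-draining lymph nodes of Ifngr-1-mutant NOD mice and wild type (WT) NOD mice, all 125 days old. Ifngr1 codes for 1 subunit of the receptor for interferon-γ, and the labels do not describe the mutant allele further. Cells that bound a tetramer of H-2Kd with the IGRP206–214 peptide, a beta cell autoantigen, gave the TET libraries, and CD8+CD44+ cells from the flow-through of the magnetic column gave the CD8 libraries. The groups were mutant TET (n = 4), WT TET (n = 3), mutant CD8 (n = 4) and WT CD8 (n = 4), with 1 library per mouse and fraction. A TET library from the 4th WT mouse is not analysed here. The tables hold receptor sequences alone, so no marker gene of the labelled cell types could be looked at.

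Total counts ranged from 2536 to 60164 in TET libraries and from 17116 to 32856 in CD8 libraries. Clonotypes numbered 997, 2199, 1631 and 393 in mutant TET and 102, 126 and 97 in WT TET libraries, against 4502 to 9827 in mutant CD8 and 2040 to 8596 in WT CD8 libraries. A share in a WT TET library therefore rests on about 100 clonotypes. The libraries mutant TET 4 and WT TET 2 shared 18 clonotypes, which held 88.9% of the counts of mutant TET 4 and 25.4% of those of WT TET 2, although they come from different mice. Sharing was not limited to this pair. In the other pairs of TET libraries, the smaller of the 2 such shares reached up to 32.9%. Of the 18 clonotypes shared by mutant TET 4 and WT TET 2, 11 had no D name and held 70.8% of the counts of mutant TET 4. Several results are therefore also given without both of these libraries. Results weighted by counts or based on summed counts were not recomputed without them.

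The D sequences that the tables align to were read back from the alignments of clonotypes whose D match was exact, 23035 for TRBD1 and 17413 for TRBD2, and every aligned base was the same as theirs. They are shown because their likeness decides how certain a D name can be. The capital marks the first base at which they differ.
TRBD1: gggacAggggg
TRBD2: gggacTggggggg

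As read here, both begin with the same 5 bases and end in runs of 5 and 7 G. RefSeq gives lengths of 12 bases for TRBD1 and 14 for TRBD2, against 11 and 13 read here, and in the tables each stretch is flanked by its own reverse complement, so that a match could extend past either end. The lowest alignment score of a named D was 25, which at 5 per matched base equals 5 matched bases. TRBD1 clonotypes matched 7.60 bases on average and TRBD2 clonotypes 9.13. Exactly 5 bases were matched in 21.5% of TRBD1 and 5.65% of TRBD2 clonotypes. The whole stretch as read here, which is shorter than the RefSeq length, survived trimming in 1105 TRBD1 clonotypes (4.44%) and 636 TRBD2 clonotypes (3.31%).

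A matched stretch that also occurs in the other segment's sequence, taken with its flanks, cannot tell the segments apart. This was so for 3673 TRBD1 clonotypes (14.8%) and for none of the 19217 TRBD2 clonotypes. The 3 most frequent such stretches were a run of 5 G alone in 710 clonotypes, a run of G ending in a C of the flank in 471 and the shared first 5 bases in 373. All clonotypes with a stretch found in both sequences carried the TRBD1 name in these tables. The share was 11.4% of TRBD1 clonotypes with TRBJ1 and 17.3% of those with TRBJ2, the cluster that either D can join. It ranged from 5.41% to 15.2% in TET libraries and from 14.2% to 15.5% in CD8 libraries.

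**Figure D1:**
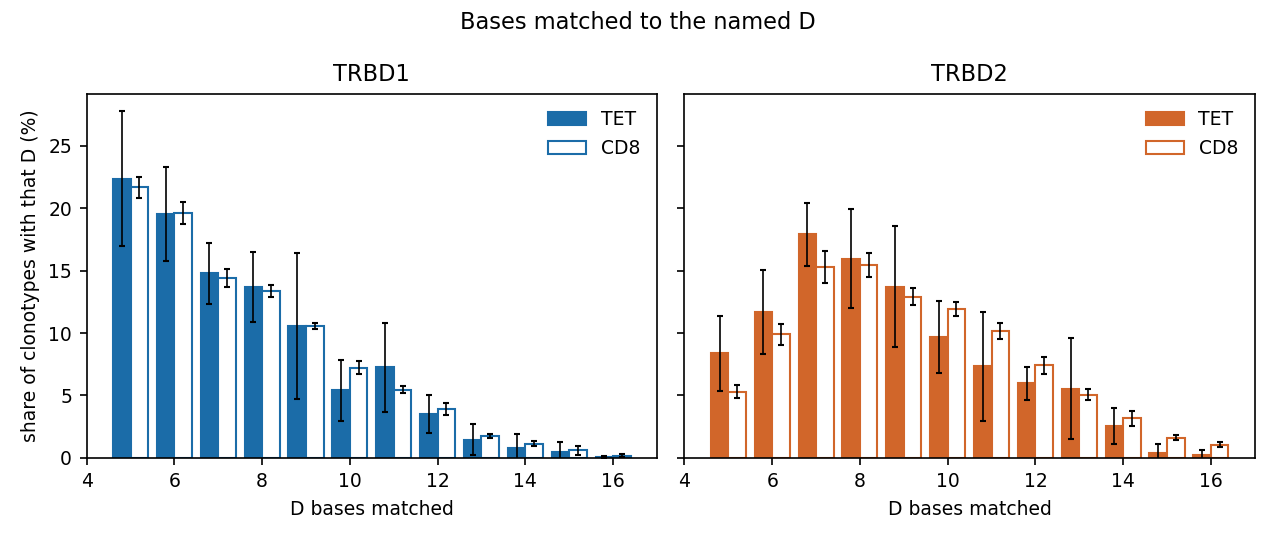
Bases matched to the named D, from 5 to 16, on the x axis, against the share of clonotypes with that D on the y axis, for TRBD1 (left) and TRBD2 (right). Bars are means and error bars SD over 7 TET libraries (filled) and 8 CD8 libraries (open). TRBD1 names are most frequent at the minimum of 5 bases, while TRBD2 names peak at 7 to 8.

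The J cluster gave a view of D naming that does not depend on the D bases. With TRBJ1, 10618 clonotypes were named TRBD1, 1056 were named TRBD2 and 5819 had no D name, so 6.04% of TRBJ1 clonotypes carried a TRBD2 name. With TRBJ2, 14273 clonotypes were named TRBD1, 18161 were named TRBD2 and 9437 had no D name. TRBD2 matches with TRBJ1 averaged 7.06 bases, against 9.26 with TRBJ2. Exactly 5 bases were matched in 17.9% of TRBD2 clonotypes with TRBJ1 and 4.94% of those with TRBJ2, and the whole TRBD2 stretch was found in 0 of the 1056 and in 3.50% of those with TRBJ2. For TRBD1 the mean match was 7.66 bases with TRBJ1 and 7.56 with TRBJ2.

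TRBD2 made up 9.81% ± 2.61 (SD, n = 4) of the D-named TRBJ1 clonotypes in mutant TET and 5.61% ± 5.02 (n = 3) in WT TET libraries, against 9.22% ± 0.664 (n = 4) in mutant CD8 and 9.08% ± 0.611 (n = 4) in WT CD8 libraries. No contrast of this share passed (two-sided exact permutation p of 0.171 to 0.714, adjusted 0.514 to 0.837). WT TET 1 held 0 TRBD2 clonotypes among its 30 D-named TRBJ1 clonotypes, which allows a share of up to 10%, above the CD8 means. The share of D-named TRBJ1 clonotypes that bear a TRBD2 name thus lay near 9% in the CD8 libraries of both strains, with an SD under 1 percentage point.

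Receptors without a D name had a short junction. Between the end of the V match and the start of the J match lay 4.31 bases on average, against 10.6 in TRBD1 and 12.3 in TRBD2 clonotypes. In 7399 of 15256 receptors without a D name (48.5%) fewer than 5 bases lay in the gap, which is under the shortest named match. The other 7857 had room for 5 bases or more and still received no name. Where a D was named, 1.61 bases lay between V and D and 1.39 between D and J for TRBD1, and 1.79 and 1.37 for TRBD2.

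For each class, the receptor with the highest mean share of counts over the TET libraries and that over the CD8 libraries are given as nucleotide CDR3, since they show what a D name rests on. Capitals mark the bases matched to the D or, in a receptor without a D name, the bases between the V and J matches. All 6 lie at the beta chain locus on chromosome 6.
No D, TET: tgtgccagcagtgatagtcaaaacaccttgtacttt
No D, CD8: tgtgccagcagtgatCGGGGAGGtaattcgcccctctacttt
TRBD1, TET: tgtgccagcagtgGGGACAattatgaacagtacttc
TRBD1, CD8: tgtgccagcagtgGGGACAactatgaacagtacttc
TRBD2, TET: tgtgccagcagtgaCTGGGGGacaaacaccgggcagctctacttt
TRBD2, CD8: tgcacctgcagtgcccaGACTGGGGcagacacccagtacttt

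The TET receptor without a D name, TRBV13 with TRBJ2, had no base between its V and J matches, which overlapped. It held 4.80% of counts on average over the TET libraries, was found in 6 of 7, and reached 22.0% in WT TET 1 (exact Clopper-Pearson 95% interval 20.9% to 23.2%). Without that library its mean was 1.93%. The CD8 receptor without a D name had 8 bases between V and J, held 0.782% of mutant CD8 4 (interval 0.690% to 0.883%) and was found in no TET library. There, 3 counts would be between 0.00499% and 0.118% of a library. Intervals and such limits cover counting error only, since the tables do not say whether counts are reads or molecules.

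The TET receptor named TRBD1 rested on 6 D bases that include the distinguishing base. It was found in 6 of 7 TET libraries with a mean share of 3.20% and a highest share of 7.49% in mutant TET 4 (interval 7.28% to 7.70%). The CD8 receptor named TRBD1 rested on the same 6 bases with the same V family and J cluster, and reached 1.00% of WT CD8 1 (interval 0.861% to 1.17%) and 7.99% of mutant TET 1. The TET receptor named TRBD2 was smaller, with a mean share of 0.879% from 2 of 7 libraries. It held 4.89% of WT TET 3 (interval 4.08% to 5.80%), and its mean without that library was 0.211%. The CD8 receptor named TRBD2 used family TRBV1, reached 0.674% of mutant CD8 1 (interval 0.568% to 0.795%) and was found in no TET library.

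The share of clonotypes in each D class was compared between the fractions. TRBD2 was named in 24.4%, 21.9%, 23.5% and 24.7% of clonotypes in mutant TET libraries and in 20.6%, 32.5% and 39.2% in WT TET libraries. In the CD8 libraries it was named in 32.6%, 33.6%, 33.6% and 34.99% in mutant mice and in 33.2%, 32.2%, 31.8% and 32.9% in WT mice. All 4 mutant TET libraries and WT TET 1 lay below every CD8 library, while WT TET 2 lay among the CD8 libraries and WT TET 3 above them. The difference, averaged over strains, was -5.94 percentage points (exact permutation p = 0.0131, adjusted 0.127 over 39 tests) and did not pass.

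Receptors without a D name made up 29.0%, 30.1%, 28.1% and 31.0% of clonotypes in mutant TET libraries and 34.3%, 30.2% and 22.7% in WT TET libraries. In mutant CD8 libraries they made up 25.9%, 25.1%, 24.5% and 24.95%, and in WT CD8 libraries 25.5%, 24.8%, 26.4% and 26.05%. Every TET library but WT TET 3 lay above every CD8 library. The difference of 3.92 percentage points did not pass (exact permutation p = 0.0131, adjusted 0.127). Each library was also left out in turn. Without WT TET 3, the library that ran the other way, both differences passed, at 5.51 percentage points for receptors without a D name (adjusted p = 0.00929, exact permutation test) and -8.04 for TRBD2 (adjusted p = 0.0223, exact permutation test). Without WT TET 1 they were smallest, at 2.606 and -3.391 percentage points. A pass that needs WT TET 3 left out is no support for either difference.

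TRBD1 was named in 46.6%, 48.0%, 48.4% and 44.3% of clonotypes in mutant TET libraries and in 45.1%, 37.3% and 38.1% in WT TET libraries. In mutant CD8 libraries the shares were 41.5%, 41.3%, 41.9% and 40.1%, and in WT CD8 libraries 41.3%, 43.002%, 41.8% and 41.0%. The 4 mutant TET libraries lay above every CD8 library, and the WT TET libraries lay on both sides. The difference of 2.01 percentage points between the fractions did not pass (exact permutation p = 0.196, adjusted 0.545). Within TRBV13, the family with 45.7% of mutant TET and 58.5% of WT TET clonotypes, against 34.5% of mutant CD8 and 35.8% of WT CD8 clonotypes, the difference was 5.87 percentage points and passed (adjusted p = 0.0159, exact permutation test).

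Within strains these 3 shares separated the fractions in the mutant mice. Mutant TET libraries averaged 23.6% ± 1.26 TRBD2, 46.8% ± 1.86 TRBD1 and 29.6% ± 1.27 without a D name (SD, n = 4), against 33.7% ± 0.985, 41.2% ± 0.793 and 25.1% ± 0.611 in mutant CD8 libraries (n = 4). None of these 3 shares overlapped between the mutant fractions, and each gave the smallest p that 70 assignments allow (0.0286, exact permutation test, not adjusted). The 3 shares add up to the whole library, so they are not separate results. Averaged over strains and adjusted, none of the 3 differences had passed. In WT mice the same differences were -1.78 percentage points for TRBD2, -1.60 for TRBD1 and 3.38 for receptors without a D name, with unadjusted exact permutation p of 0.314 to 0.686. Other measures did reach 0.0286 in WT mice (exact permutation test, not adjusted). These were the TRBD1 share of D-named TRBJ2 clonotypes (-5.34 percentage points), the TRBD2 clone size on the log2 scale (-1.12), and the lengths without a D name (-0.232 amino acids) and with TRBD2 (-0.265). Whether the strains differ in the step between fractions was tested over 7 pairs of same-numbered libraries, taken as mice with both fractions. The step for TRBD1 was 5.63 percentage points in mutant and -1.86 in WT mice, a difference of 7.49 (exact permutation p = 0.0286, adjusted 0.0857 over 3 tests), which did not pass and which turned to -6.05 when clonotypes were weighted by counts (adjusted p = 0.857, exact permutation test). For TRBD2 the difference of the steps was -8.44 (exact permutation p = 0.2, adjusted 0.3), and for receptors without a D name 0.952 (p = 0.857, exact permutation test).

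**Figure D2:**
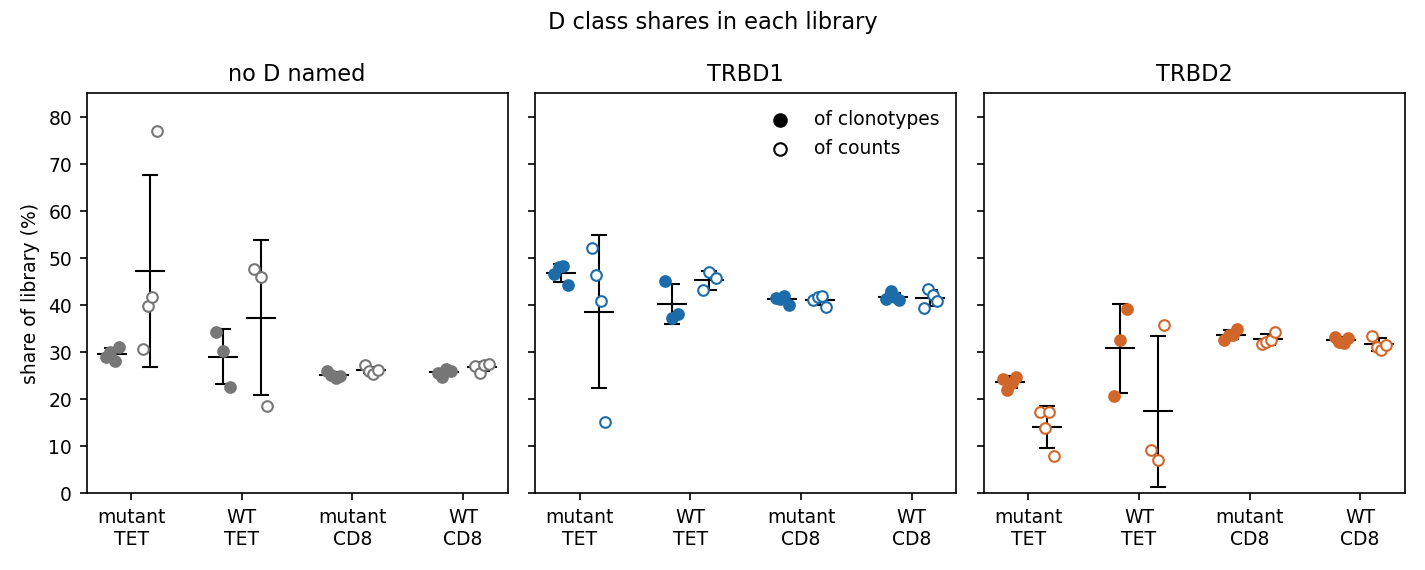
Share of each library in the 3 D classes, in percent, for the 4 groups. Filled points count each clonotype once and open points weight it by its counts, with 1 point per library, and bars show mean ± SD. TRBD2 sits between 21.9% and 24.7% of clonotypes in mutant TET and between 32.6% and 34.99% in mutant CD8, and the WT TET libraries spread from 20.6% to 39.2%.

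Weighted by counts, the TET means of TRBD2 and of receptors without a D name lay further from the CD8 means than by clonotypes. The TRBD1 means lay closer, at 41.5% of counts in TET and 41.3% in CD8 libraries, against 44.0% and 41.5% of clonotypes. TRBD2 receptors held 17.3%, 13.97%, 17.3% and 7.84% of counts in mutant TET libraries and 9.24%, 7.11% and 35.8% in WT TET libraries, against 30.4% to 34.3% in the 8 CD8 libraries. All TET libraries but WT TET 3 lay under every CD8 library, and the difference of -16.4 percentage points passed (adjusted p = 0.0199, exact permutation test). It was not computed without WT TET 2 and mutant TET 4. Receptors without a D name held 30.6%, 39.7%, 41.8% and 77.0% of counts in mutant TET and 47.6%, 46.0% and 18.5% in WT TET libraries, against 25.4% to 27.5% in CD8 libraries. The highest of these, mutant TET 4, is the library in which 11 shared clonotypes without a D name hold 70.8% of the counts. TRBD1 receptors held 52.1%, 46.3%, 40.9% and 15.2% of counts in mutant TET (mean 38.6% ± 16.3, SD, n = 4) and 43.1%, 46.9% and 45.7% in WT TET libraries (45.2% ± 1.95, n = 3), against 39.4% to 43.4% in the 8 CD8 libraries. By counts the TET means of the strains stood in the opposite order to that by clonotypes, and neither difference passed.

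Clone size, the mean count of a class over the mean count of its library on a log2 scale, gave the one test of the 39 between groups that passed. For TRBD2 it was -0.49, -0.65, -0.44 and -1.65 in mutant TET libraries and -1.16, -2.19 and -0.13 in WT TET libraries, against -0.06 to 0.01 in the 8 CD8 libraries. Every TET library lay below every CD8 library. The spread was unlike, with an SD of 0.744 over TET libraries (n = 7) and 0.0257 over CD8 libraries (n = 8), whereas a permutation of labels assumes a like spread. The difference was -0.94 (exact permutation p = 0.000408, the smallest that 2450 assignments can give, adjusted 0.0159), and it was -0.77 in mutant and -1.12 in WT mice. With same-numbered TET and CD8 libraries paired as mice, all 7 pairs showed the direction and the mean was -0.92, but 7 pairs cannot give an exact p under 0.0156, so the adjusted p was 0.271. Without WT TET 2 and mutant TET 4 the difference was -0.54 (adjusted p = 0.0743, exact permutation test). With the median count in place of the mean it was -0.11 (adjusted p = 0.955, exact permutation test).

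For the other classes the clone sizes overlapped between fractions. Receptors without a D name stood at 0.45 ± 0.50 (SD, n = 7) in TET and 0.06 ± 0.02 (n = 8) in CD8 libraries, with a difference of 0.36 (exact permutation p = 0.042, adjusted 0.226). TRBD1 stood at -0.16 ± 0.64 in TET and -0.01 ± 0.03 in CD8 libraries (adjusted p = 0.880, exact permutation test). No clone size passed between the strains, with adjusted p of 0.557 to 0.825 in TET and 0.837 to 1 in CD8 libraries (exact permutation tests).

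**Figure D3:**
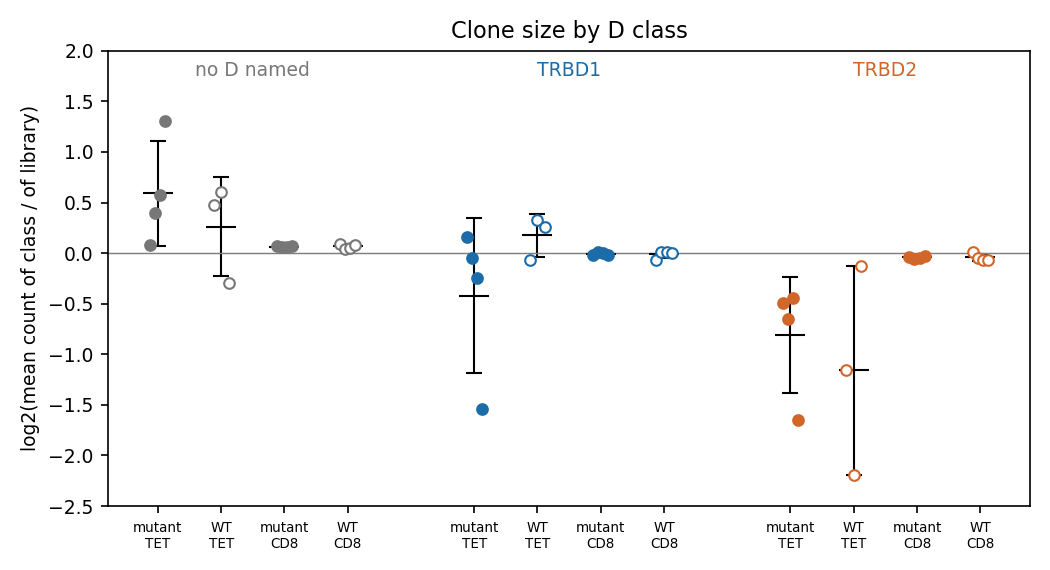
Clone size by D class on the log2 scale, as the mean count of the class over the mean count of the library, with 1 point per library (filled for mutant, open for WT) and mean ± SD for the 4 groups. The grey line at 0 marks the library's own mean. All 7 TET libraries lie below 0 for TRBD2, from -2.19 to -0.13.

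Inside each TET library the classes could be compared with one another. The mean TRBD1 clone was larger than the mean TRBD2 clone in 7 of 7 TET libraries, by 1.74-fold as a geometric mean (exact sign-flip permutation p = 0.0156, adjusted 0.0219 over 14 tests). The mean clone without a D name was 2.65-fold larger than the mean TRBD2 clone, in 6 of 7 libraries (exact permutation adjusted p = 0.0398). Without WT TET 2 and mutant TET 4 neither of these passed, with log2 differences of 0.59 for TRBD1 over TRBD2, against 0.79 with all libraries, and of 0.82 for no D name over TRBD2, against 1.41, and 5 libraries cannot give an exact p under 0.0625. By median clone size neither passed either (log2 differences of 0.36 for TRBD1 and 0.33 for no D name, exact permutation adjusted p = 0.202 and 0.375). Set against TRBD1, clones without a D name were larger in 5 of 7, which did not pass (1.53-fold, exact permutation adjusted p = 0.168). In the CD8 libraries clones without a D name were 1.05-fold larger than TRBD1 and 1.08-fold larger than TRBD2 clones, in 8 of 8 libraries each (exact permutation adjusted p = 0.0182). TRBD1 and TRBD2 clones differed there by 1.02-fold (exact permutation adjusted p = 0.146).

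The largest single clonotype of each class followed the same order by its median in the TET fraction, though not in every library. It held between 3.63% and 22.0% of a TET library (median 10.8%) among receptors without a D name, between 2.98% and 15.1% (median 7.41%) for TRBD1, and between 1.27% and 4.89% (median 1.81%) for TRBD2. WT TET 3 had the reverse order. TRBD1 stood above receptors without a D name in mutant TET 1 and WT TET 2, and TRBD2 above TRBD1 in mutant TET 3. The largest clonotype of the whole library had no D name in 4, TRBD1 in 2 and TRBD2 in 1 of the 7 TET libraries. In the 8 CD8 libraries it was a TRBD1 clonotype in 6 and a TRBD2 clonotype in 2, and the medians were 0.218% without a D name, 0.430% for TRBD1 and 0.261% for TRBD2.

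Crossing the D class with the J cluster gave 6 classes of clonotypes, tested with edgeR (quasi-likelihood) on the number of clonotypes per class, with the number of clonotypes as library size. Between TET and CD8, 3 of 6 classes were called (50% of those tested). TRBD1 with TRBJ1 rose to 23.6% of clonotypes in TET libraries, against 17.1% in CD8 libraries (log2 fold change 0.48, SE 0.113, edgeR adjusted p = 0.000224). TRBD2 with TRBJ2 fell to 24.7% in TET, against 31.4% in CD8 (log2 fold change -0.35, SE 0.0816, edgeR adjusted p = 0.000224). TRBD1 with TRBJ2 fell to 20.4% in TET, against 24.4% in CD8 (log2 fold change -0.30, SE 0.101, edgeR adjusted p = 0.00706). With the counts summed per class in place of clonotypes, neither TRBD1 class was called (log2 fold change 0.05 with TRBJ1 and -0.02 with TRBJ2, edgeR adjusted p = 0.949 for both). TRBD2 with TRBJ2 was still called by counts (log2 fold change -1.02, edgeR adjusted p = 0.0213), and so were receptors without a D name with TRBJ2 (1.03, edgeR adjusted p = 0.0213) and TRBD2 with TRBJ1 (-2.76, edgeR adjusted p = 0.000253). That last class held 0, 3 and 1 clonotypes in WT TET 1, WT TET 2 and WT TET 3. By counts, TRBD2 held 10.3% of D-named TRBJ1 receptors in mutant TET and 9.38% in mutant CD8 libraries. In WT mice these shares were 0.275% in TET and 8.86% in CD8 libraries. By clonotypes the class was not called (log2 fold change 0.02, edgeR adjusted p = 0.956). Summed counts were not refitted without WT TET 2 and mutant TET 4.

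TRBJ1 as a whole made up 44.1%, 44.8%, 43.3% and 35.4% of clonotypes in mutant TET libraries and 40.2%, 32.5% and 24.7% in WT TET libraries, against 25.7% to 30.7% in CD8 libraries, and its part in the 3 calls was not tested. With the mouse as a block, edgeR called 5 of the 6 classes, all but receptors without a D name with TRBJ2. Without WT TET 1 it called TRBD2 with TRBJ2 alone. TRBD1 with TRBJ2 was no longer called when WT TET 2 was left out, by itself or together with mutant TET 4. The fit shares 1 estimate of the spread over all groups, whereas WT TET libraries spread more than the others.

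Between the strains in the TET fraction, 1 of 6 classes was called (16.7% of those tested). TRBD2 with TRBJ2 made up 21.3%, 19.7%, 21.1% and 21.6% of clonotypes in mutant TET libraries, against 20.6%, 30.2% and 38.1% in WT TET libraries, which overlapped. It fell to 20.9% in mutant TET, against 29.6% in WT TET (log2 fold change -0.52, SE 0.176, edgeR adjusted p = 0.0276). By summed counts this class was not called (log2 fold change -0.41, edgeR adjusted p = 0.635), and TRBD2 with TRBJ1 was (log2 fold change 4.23, edgeR adjusted p = 0.000501). TRBD2 with TRBJ1 held only 0, 3 and 1 clonotypes in the WT TET libraries. By clonotypes it was not called (log2 fold change 1.01, edgeR adjusted p = 0.230). The clonotype call of TRBD2 with TRBJ2 was lost when WT TET 2 or WT TET 3 was left out, and when mutant TET 4 was left out together with WT TET 2, while mutant TET 4 left out by itself gave 2 calls. In the CD8 fraction no class was called between the strains (0% of 6 by edgeR, with 2 at an unadjusted p under 0.05). With mutant CD8 1, mutant CD8 3 or mutant TET 4 left out, 2 classes were called there, receptors without a D name with TRBJ1 and TRBD1 with TRBJ1, and with WT CD8 1 or WT CD8 4 left out, TRBD1 with TRBJ1 alone.

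**Figure D4:**
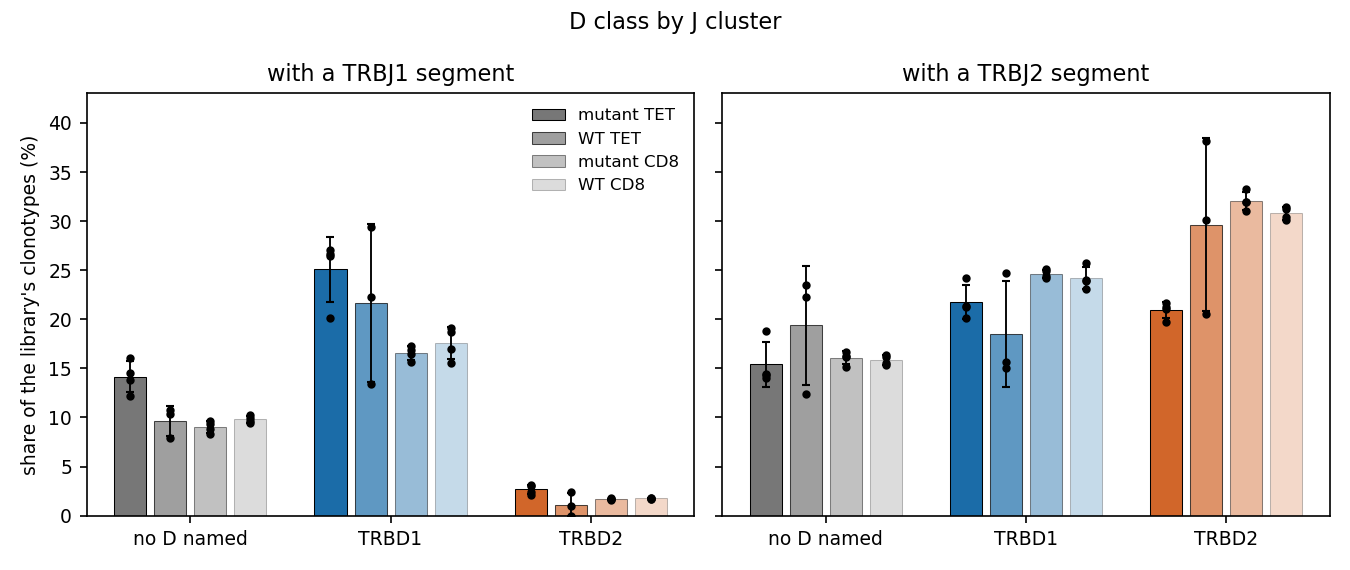
Share of the library's clonotypes in each D class, in percent, for clonotypes with a TRBJ1 segment (left) and with a TRBJ2 segment (right). Bars are group means, error bars SD and points single libraries, and within each D class the bars from dark to light are mutant TET, WT TET, mutant CD8 and WT CD8. TRBD2 with TRBJ1 is the smallest class in each group, and TRBD2 with TRBJ2 is near 21% in mutant TET, against 30% to 33% in CD8 libraries.

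Among D-named TRBJ2 clonotypes, where both D segments are open to joining, TRBD1 was named in 48.7%, 52.0%, 50.2% and 52.8% in mutant TET libraries and in 43.2%, 33.3% and 39.3% in WT TET libraries. The strains did not overlap. The difference was 12.3 percentage points, at the smallest p of the design (exact permutation p = 0.0286, adjusted 0.186), and did not pass. In CD8 libraries the share was 43.5% ± 0.748 in mutant and 43.98% ± 0.751 in WT mice (SD, n = 4 each). With clonotypes whose D bases are found in both segments counted as unnamed, an alternative chosen after the data were seen, the TET difference was 11.7 percentage points (adjusted p = 0.159, exact permutation test). Within TRBV13 it was 3.75 (adjusted p = 0.867, exact permutation test).

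The share without a D name also depended on the J cluster. In CD8 libraries it was higher with TRBJ1 than with TRBJ2 in 8 of 8 libraries, by 11.2 percentage points on average (exact permutation adjusted p = 0.0182). In TET libraries the difference was 4.82 percentage points, in 5 of 7 (exact permutation p = 0.375). WT TET 1 and WT TET 2 ran the other way, with 26.8% and 24.4% without a D name among TRBJ1 clonotypes and 39.3% and 32.9% among TRBJ2 clonotypes.

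CDR3 length followed the D class, which the naming itself partly fixes, since a D is named from CDR3 bases. Receptors without a D name were shorter than those with one in all 7 TET and all 8 CD8 libraries, with a difference from TRBD1 receptors of -0.991 amino acids in TET and -0.993 in CD8 libraries, and from TRBD2 receptors of -1.36 in TET and -1.46 in CD8 libraries (exact permutation adjusted p = 0.0219 in TET and 0.0182 in CD8). Within TRBJ2, TRBD1 receptors were shorter than TRBD2 receptors in every library, with a mean difference of -0.498 amino acids in TET and -0.600 in CD8 libraries. In TET libraries mean lengths were 12.95 ± 0.215 amino acids without a D name, 13.9 ± 0.257 with TRBD1 and 14.3 ± 0.194 with TRBD2 (SD, n = 7). In CD8 libraries they were 12.997 ± 0.0516, 13.99 ± 0.0265 and 14.5 ± 0.0347 (SD, n = 8).

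Between fractions TRBD2 receptors differed by -0.167 amino acids, at 14.31 in TET and 14.46 in CD8 libraries (exact permutation p = 0.00735, adjusted 0.127), which did not pass. Receptors without a D name averaged 13.16, 13.15, 13.08 and 13.06 amino acids in mutant TET libraries, against 12.60, 12.76 and 12.86 in WT TET libraries. The strains did not overlap, and the difference of 0.369 amino acids (exact permutation p = 0.0286, adjusted 0.186) did not pass. Weighted by counts it was -0.00215. In CD8 libraries these receptors averaged 13.02 amino acids in mutant and 12.97 in WT mice.

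At each CDR3 length the classes shared the clonotypes in a different proportion. As means over libraries, 81.5% of TET and 78.006% of CD8 clonotypes of 10 amino acids had no D name, against 0.962% of TET and 2.48% of CD8 clonotypes of 17. TRBD2 was named in 10.7% of TET and 10.6% of CD8 clonotypes of 11 amino acids, and in 47.01% of TET and 63.98% of CD8 clonotypes of 17. At 14 amino acids, the most frequent length, TRBD2 was named in 29.7% of TET and 32.6% of CD8 clonotypes. Pooled over clonotypes, of which mutant mice gave 5220 of 5545 in TET, these shares at 14 amino acids were 23.2% in TET and 33.1% in CD8. At 10 amino acids, with 38 TET clonotypes in all, the fractions stood in opposite orders by the 2 ways of averaging, TRBD2 being named in 15.5% of TET and 7.21% of CD8 clonotypes by library means and in 5.26% of TET and 8.03% of CD8 clonotypes when pooled. With every library set to the length distribution of the CD8 clonotypes, the difference in TRBD2 between the fractions was -4.22 percentage points (exact permutation p = 0.106, adjusted 0.375).

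**Figure D5:**
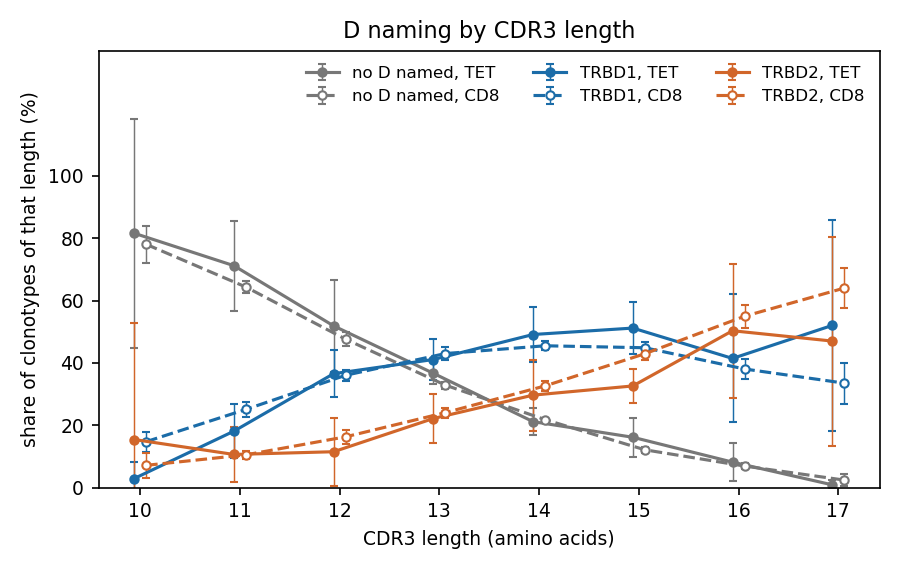
Share of clonotypes of each CDR3 length (10 to 17 amino acids, x axis) that had no D name, TRBD1 or TRBD2, in percent. Points are means and bars SD over the TET libraries (solid lines, filled points, 7 libraries, 6 at 17 amino acids) and 8 CD8 libraries (dashed lines, open points), and bars are clipped at 0. At 14 amino acids TRBD2 is at 29.7% in TET and 32.6% in CD8, and the share without a D name falls with length in both fractions.

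The number of D bases left in the junction was examined after the tables' columns had been seen, as 1 of 30 tests on junction measures. TRBD2 receptors kept 8.75, 8.93, 8.80 and 8.33 D bases on average in mutant TET libraries and 9.14, 8.07 and 8.55 in WT TET libraries, against 9.11 to 9.24 in CD8 libraries. Of the TET libraries, WT TET 1 alone lay within the CD8 range, and the others lay below it. The difference was -0.521 bases (exact permutation p = 0.000816, adjusted 0.0245 over the 30), and no other of the 30 tests passed. It was -0.554 within TRBJ2 (adjusted p = 0.0122, exact permutation test). It did not pass within TRBV13 (-0.253, adjusted p = 0.576, exact permutation test), without WT TET 2 and mutant TET 4 (-0.329, adjusted p = 0.114, exact permutation test), without WT TET 2 (-0.392) or WT TET 3 (-0.511) alone (adjusted p = 0.0571 each, exact permutation tests), weighted by counts (-0.507, adjusted p = 0.429, exact permutation test) or with mice paired (adjusted p = 0.239, exact permutation test).

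TRBD1 receptors kept 7.53 D bases in TET and 7.61 in CD8 libraries (adjusted p = 0.726, exact permutation test). Among receptors named TRBD1 whose match had no insertion or deletion, the reading frame in which a codon starts at the second base of the segment was used by 34.2% in TET and 29.6% in CD8 libraries (exact permutation p = 0.0461, adjusted 0.277). For TRBD2 the frame in which a codon starts at the third base was used by 30.1% in mutant TET and 40.6% in WT TET libraries (exact permutation p = 0.286, adjusted 0.576). Added bases between D and J of TRBD2 receptors numbered 1.43 in mutant TET and 1.16 in WT TET libraries, without overlap (exact permutation p = 0.0286, adjusted 0.239). None of these passed.

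D naming differed between V families within one fraction. Among the 17 V families with at least 50 clonotypes in the pooled CD8 libraries, the share without a D name ran from 14.8% in TRBV4 to 39.3% in TRBV26. TRBD1 ran from 31.1% in TRBV31 to 55.9% in TRBV29, and TRBD2 from 20.05% in TRBV29 to 47.0% in TRBV4. In the 12 families with at least 50 clonotypes in each fraction, TRBD2 was named more often in TET than in CD8 in 1 family, TRBD1 in 10 and no D in 9. The TET clonotypes are pooled over libraries and come mostly from mutant mice (5220 of 5545), so these counts describe mutant TET in the main and carry no test.

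V families whose share of clonotypes varied most like that of a D class over the 4 groups were found among 12 families, by the mean absolute difference in log2 share relative to the mean of the groups. Nearest to TRBD2 were TRBV29 (0.19) and TRBV4 (0.30), nearest to TRBD1 were TRBV19 (0.14) and TRBV5 (0.18), and nearest to receptors without a D name were TRBV5 (0.19) and TRBV13 (0.20). TRBV29 held 3.42% of mutant TET and 4.15% of WT TET clonotypes, against 6.18% of mutant CD8 and 5.81% of WT CD8 clonotypes. TRBV29, lowest of the families in TRBD2 naming, was the family whose use over the groups was most like that of TRBD2.

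Between the strains in the CD8 fraction, none of 13 exact permutation tests on D measures passed, none had an unadjusted p under 0.05, and adjusted p ranged from 0.304 to 1. The smallest exact permutation p possible between strains is 0.0286, and the TET measures that reached it adjusted to 0.186. A strain contrast could thus hardly pass, and these tests cannot show that the strains are alike. The smallest p, 0.0857, belonged to the TRBD2 share, at 33.7% ± 0.985 in mutant CD8 and 32.5% ± 0.622 in WT CD8 libraries (SD, n = 4 each), a difference of 1.15 percentage points.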

How the data were processed

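The authors deposited 1 clonotype table per library with a count and a fraction for each distinct CDR3, and per the labels' protocols the RNA was amplified by 5′RACE with 9-nt molecular identifiers and nested PCR. The deposited count is a whole number, with reads or molecules not stated. The deposited fraction summed to 94.2% to 99.2% per table, and shares were recomputed from counts. The deposited tables give an alignment score for V, D and J, match positions and CDR3 lengths in amino acids. The aligner and the build are unnamed (not given in the sources used here). Members and lists were chosen with earlier results of these data known. Of 59368 entries, 4 of alpha chain segments (6 counts) were left out. 3 counts of a library were taken as the limit of detection, from 0.00499% to 0.118%.

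Group means were compared by two-sided exact permutation tests, counting assignments with an absolute difference at least as large as that observed: 2450 for TET against CD8 (fraction reassigned within strain, smallest p 0.000408), 35 and 70 between strains in TET and CD8 (smallest p 0.0286 in both), with Benjamini-Hochberg adjustment over 39 tests (13 measures and 3 contrasts) and a threshold of 0.05. Strain contrasts at their smallest exact permutation p adjusted to 0.186, so a strain contrast that did not pass cannot show that the strains are alike. Differences within libraries used exact sign flips (14 tests). edgeR 4.0.16 (glmQLFit, no dispersion trend, filterByExpr minimum count 10) and DESeq2 1.42.0 ran in R 4.3.3. The permutation test between 2 groups of equal size, the sign flips and edgeR were checked on simulated data, for edgeR with the same spread in all groups. The permutation within strains was checked on set values only, and DESeq2 was not checked. Printed receptors were those with the highest mean share of counts per class and fraction. V families were set beside a D class by their likeness over the 4 groups. TET and CD8 libraries with the same strain and number were paired as 1 mouse, because 4 mice of each strain are named in the design text as the source of both fractions. The same text excludes duplicate samples of a mouse, which may or may not cover its fractions, so paired values rest on an uncertain reading. Over the 6 classes, their deviations correlated with r from -0.881 to 0.685 (-0.601, -0.783 and -0.881 in 3 of 7 pairs), and the own CD8 library was nearest in 2 of 7.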

Additional observations from a re-analysis of the deposited data

Results flagged for a closer look

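With 39 groups of 4 libraries examined, 4 held a library that stood apart from the rest of its group by Dixon's ratio, a ratio that chance exceeds in about 1 in 20 groups. 3 of the 4 were mutant TET 4, the library that shares 18 clonotypes with WT TET 2. Its share without a D name among TRBJ2 clonotypes was 29.13%, with the others at 25.22% to 25.85%. Its TRBD2 receptors averaged 14.19 amino acids, with the others at 14.45 to 14.48. Its TRBD2 clone size was -1.654 on the log2 scale, with the others at -0.6473 to -0.4428. In mutant CD8 4, TRBD1 was named in 42.39% of D-named TRBJ2 clonotypes, with the others at 43.8% to 43.99%.

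In 2 measures the step between TET and CD8 ran in opposite directions in every mouse of the strains. The TRBD1 share of D-named TRBJ2 clonotypes was higher in TET than in CD8 by 7.409 percentage points in mutant mice (4.828 to 10.39) and differed by -5.507 in WT mice (-10.65 to -1.791), a difference of 12.92 between the strains (exact permutation p = 0.02857 over 7 mice, not adjusted). The length of receptors without a D name differed by 0.09245 amino acids in mutant mice and by -0.2118 in WT mice, a difference of 0.3042 (exact permutation p = 0.02857, not adjusted). Both are the smallest p that 35 assignments allow, and both measures were picked out for this pattern.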

How the results depend on the processing

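Over 46 results, 795 alternatives were computed. Direction and side of the threshold were kept in 707, the call was lost in 49 and gained in 16, and the direction turned in 23. The smaller TRBD2 clone size in TET was -0.9233 without 414 clonotypes held at 10 or more times the count in another library, -0.5426 without WT TET 2 and mutant TET 4, -0.1082 by medians and -0.92 with the replicate block, none of which passed. Without any 1 WT CD8 library it reached 0.00143, the smallest exact permutation p then possible, which adjusted over 39 tests to 0.0557. Leaving out single libraries gave -1.2 (without WT TET 3) to -0.6834 (without WT TET 2). The difference of the fractions in TRBD2 passed when weighted by counts (-16.42), and that in TRBD1 within TRBV13 (5.87). By single libraries left out, it ran from 2.606 to 5.514 without a D name and from -8.038 to -3.391 for TRBD2, lowest in size without WT TET 1 and highest without WT TET 3.

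The direction turned for differences that had not passed, some of them at or near the smallest p of their design. Between the TET strains this held for the share without a D name without clonotypes of 1 count (-1.867) and by single libraries left out (-2.667 to 3.15), for TRBD1 by counts (-6.623), for the lengths by counts (-0.00215 without a D name, -0.3216 TRBD1), and for the TRBD2 clone size within TRBV13 (-0.05089) and by single libraries (-0.1671 to 0.8656). Between CD8 strains it held for the share without a D name within TRBV13 (0.313). Between fractions it held for the length without a D name within TRBV13 (0.08312), the TRBD1 clone size by medians (0.1491), and without WT TET 2 and mutant TET 4 for the share without a D name in TRBJ1 (0.4626), the TRBD1 length (0.04782) and the TRBD1 clone size (0.03451). Leaving out single libraries moved these from -3.737 to 0.5824, from -0.1312 to 0.03392 and from -0.2103 to 0.0734, and the TRBD1 share of D-named TRBJ2 clonotypes from -0.1142 to 2.363. Within TET libraries, receptors without a D name against TRBD1 turned by median clone size (-0.02774), and the TRBJ1 against TRBJ2 step within TRBV13 (-2.264) and by counts (-15.36). The difference of the steps between strains turned without a D name for clonotypes above 1 count (-1.809) and by single mice (-2.643 to 3.61), and for TRBD1 by counts (-6.045). The causes were not tested. edgeR called 5 classes between fractions with the replicate block, and from 1 to 4 by single libraries left out. It called 0 between TET strains with TMM factors, without clonotypes of 1 count and without WT TET 2 and mutant TET 4, and 0 to 2 by single libraries in TET and in CD8. The planned run without entries that name more than 1 D was not run, since there were none. The few clonotypes of WT TET libraries limit every comparison with them.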
